A study of Mus musculus with 27 samples.

Results

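Day 10 embryoid bodies were compared with day 3 embryoid bodies of the 1 line in the series that is labelled Sam68 KO, as 3 libraries against 3 out of 27 in all. The members were taken from the labels, which give the line, the day and the replicate of every library. The labelled knockout of Sam68 (gene Khdrbs1) is carried by both groups, on the background of the mouse embryonic stem cell line E14, so the day is the labelled difference between them. Embryoid bodies are clusters of stem cells that differentiate together into cells of the germ layers. For reference the series holds the same line as stem cells at day 0, and a Quaking KO line and wild-type E14 at days 0, 3 and 10, with 3 biological replicates each. Each knockout is 1 line, and how the genes were disrupted is not given in the sources used here.

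In the mouse embryo the pluripotent epiblast passes from a naive to a formative state and then forms mesoderm and endoderm through the primitive streak. Mesoderm gives rise to the beating heart, to blood vessels and, in the yolk sac, to the first red cells. The visceral endoderm that lines the yolk sac secretes lipoproteins and serum proteins. Sam68 belongs to the STAR proteins, which bind RNA and take part in splicing.

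Libraries held 76355664, 77257496 and 73510174 counts at day 10, against 59416021, 62545626 and 63375667 counts at day 3. The mitochondrial ribosomal RNA mt-Rnr2 took between 8.4% and 9.39% of them at day 10, against 10.65% to 11.1% at day 3. No pair of replicates differed by as little as counting noise. The library numbers of the Sam68-labelled line form a range of their own, apart from both other lines. Levels are given as CPM, the share of a library's total count scaled to a common total, with no pseudocount. Changes are log2 values of day 10 over day 3 (log2FC) with their standard error, from edgeR's quasi-likelihood test on the 6 libraries. "Called" means an adjusted p (Benjamini-Hochberg, over all genes tested) below 0.05, and these p-values measure the spread between these samples only.

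The targeted gene was still counted in the libraries labelled Sam68 KO. Khdrbs1 (chromosome 4, 129703164 to 129742303, minus strand, GRCm38) had 98.9, 101 and 103 CPM at day 10, against 97.3, 101 and 111 CPM at day 3 (log2FC 0.02 ± 0.05, adjusted p = 0.649), and averaged 96 CPM at day 0. Wild-type libraries averaged 126 CPM at day 10 and 158 CPM at day 3. Counts over the whole gene do not show whether the transcript is altered, so they do not check the label. Of the other STAR genes, Qk, which encodes Quaking, rose, with 270.01, 263 and 286 CPM at day 10, against 192, 192 and 194 CPM at day 3 (log2FC 0.56 ± 0.04). Khdrbs3, a close relative of Sam68, fell (log2FC −1.24 ± 0.05), as did Sf1, which binds the intron branch point (log2FC −0.78 ± 0.04). Khdrbs2, another relative, had 0.262, 0.259 and 0.408 CPM at day 10, against 0.471, 0.48 and 0.41 CPM at day 3 and was not called (adjusted p = 0.0783). Scaling by protein-coding genes alone shifted the median of all genes by −0.17 log2 units, and with it Khdrbs1 was at −0.15 (adjusted p = 0.0121) and Khdrbs2 at −0.67 (adjusted p = 0.0246). Without day 3 replicate 3 Khdrbs1 passed as higher (log2FC 0.10, adjusted p = 0.0402), and without day 10 replicate 3 Khdrbs2 passed as lower (log2FC −0.71, adjusted p = 0.0215).

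Most genes moved between the days. Of 19704 tested, 17107 passed the test (86.8%): 8706 were higher (44.2%) and 8401 lower (42.6%) at day 10. Against a 2-fold change, 8200 passed (41.6%), 4294 of them higher (21.8%) and 3906 lower (19.8%). With scaling by protein-coding genes lower calls outnumbered higher ones, with 7730 higher and 9470 lower in all, and 3838 higher and 4506 lower beyond 2-fold. The libraries of the days did not overlap in 88% of the genes. Against so large a share, the count of a list's members that moved says little by itself, and the size of the moves is given with it. The median log2FC was 0.02 over all genes tested and 0.21 over the 15313 protein-coding ones. A gene that passed the filter on low counts only through its day 10 libraries had to differ, so counts over a list are descriptions of its tested members. On the first principal component of all 27 libraries, with 73.2% of the variance of the 2000 most variable genes, the Sam68-labelled libraries lay between 65.0 and 65.3 at day 0, 28.1 and 28.9 at day 3, and −97.3 and −93.8 at day 10.

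**Figure D1:**
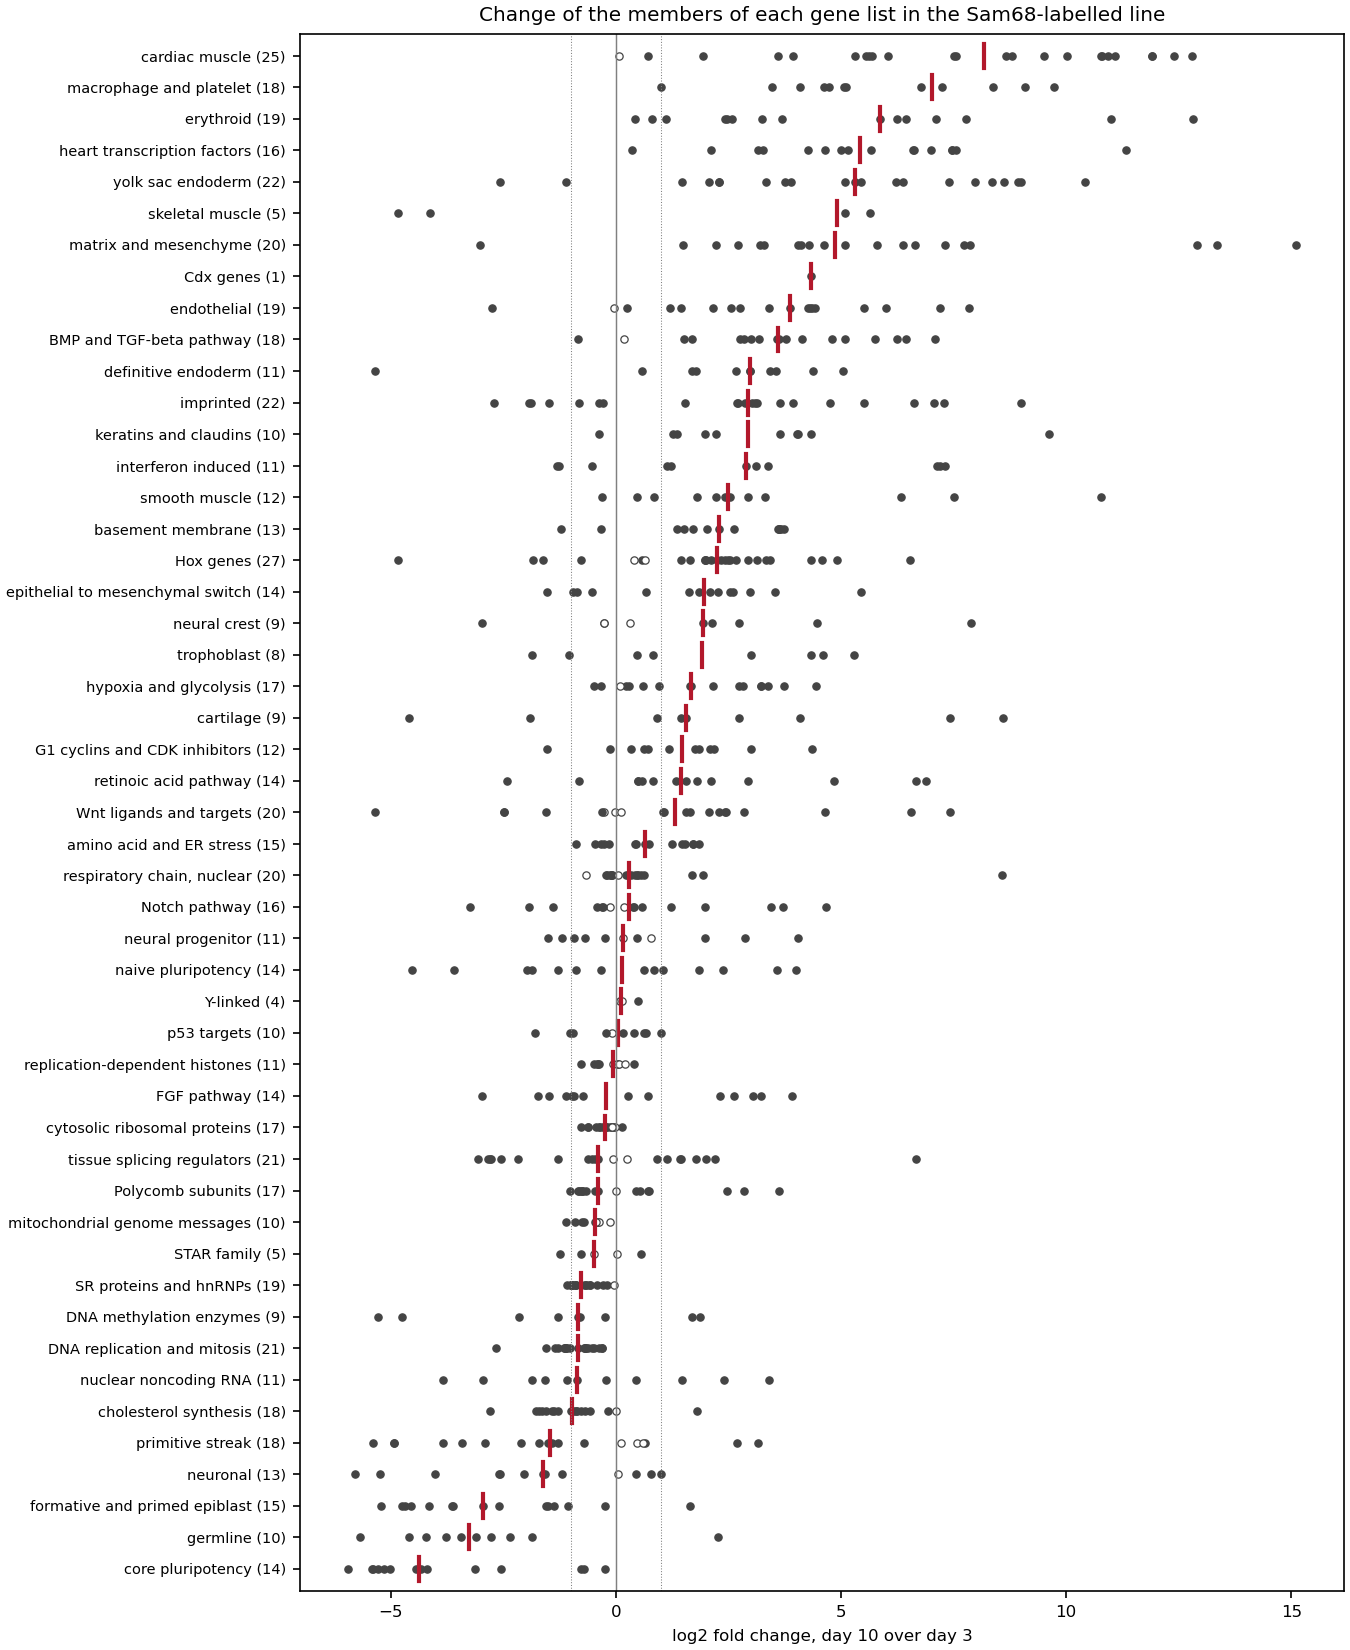
Log2 fold change of day 10 over day 3 (horizontal axis) for the tested members of 49 gene lists (rows, number tested in parentheses). Filled points passed the test and open points did not, red bars are medians with genes of no day 3 count set at their lower bound, such genes are not drawn as points, and dotted lines mark a 2-fold change. Cardiac muscle has the highest median of the lists, 8.17, and core pluripotency the lowest, −4.38.

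The core pluripotency genes fell as a group. All 14 members were lower at day 10, 11 of them beyond 2-fold, with a median log2FC of −4.38. Pou5f1 (chromosome 17, 35506018 to 35510772), the factor Oct4, had 17.9, 24.6 and 11.9 CPM at day 10, against 606, 599 and 627 CPM at day 3 (log2FC −5.01 ± 0.20, adjusted p = 1.55e-10). Its day 10 libraries differed among themselves, and all lay far below day 3. Nanog had 8.55, 12.1 and 7.07 CPM at day 10, against 217, 223 and 228 CPM at day 3 (log2FC −4.53 ± 0.14). Sox2, which is also a neural factor, had 18.8, 13.3 and 18.9 CPM at day 10, against 116, 98 and 94.7 CPM at day 3 (log2FC −2.54 ± 0.11). Dppa2, a chromatin factor of stem cells and germ cells, fell furthest of the list (1.07, 0.88 and 0.544 CPM at day 10, against 54.4, 51.2 and 56.4 CPM at day 3; log2FC −5.95 ± 0.12), followed by the ligand Gdf3 (log2FC −5.42 ± 0.10). The labels call the cells embryonic stem cells at every day, and these defining genes were at a small part of their day 3 level at day 10 without being at 0. The RNA-binding proteins Lin28a and Trim71, which hold back differentiation, fell far less. Lin28a had 408, 382 and 328 CPM at day 10, against 440.1, 469 and 457 CPM at day 3 (log2FC −0.23 ± 0.07), and Trim71 stood at log2FC −0.77 ± 0.05. In bulk RNA, fewer cells of a type and less RNA per cell cannot be told apart.

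Naive pluripotency genes did not move together. Of 14, 7 rose and 7 fell, with a median log2FC of 0.14. Tfcp2l1, a naive-state transcription factor that kidney and other epithelia also use (chromosome 1, 118627945 to 118685168), rose the most. It had 191, 181 and 143 CPM at day 10, against 9.96, 12 and 11.6 CPM at day 3 (log2FC 4.0 ± 0.11, adjusted p = 6.1e-12). Klf4, a Krüppel-like factor of stem cells, epithelia and vessels, had 49.4, 56.7 and 62.7 CPM at day 10, against 4.85, 5.15 and 4.78 CPM at day 3 (log2FC 3.57 ± 0.08). Tbx3, a T-box factor shared with the heart, had 49.96, 49.8 and 43.9 CPM at day 10, against 10.4, 8.97 and 9.61 CPM at day 3 (log2FC 2.37 ± 0.07). At day 0 these genes averaged 466, 133 and 78.1 CPM, so each was lowest at day 3. Zfp42 and Esrrb, which define the naive state more narrowly, went on falling after day 0. Zfp42 averaged 414 CPM at day 0 and had 5.09, 4.14 and 3.97 CPM at day 10, against 18.4, 17.5 and 18.5 CPM at day 3 (log2FC −1.98 ± 0.09). Esrrb averaged 384 CPM at day 0 and had 3.34, 2.33 and 2.45 CPM at day 10, against 9.96, 10.2 and 10.6 CPM at day 3 (log2FC −1.86 ± 0.12).

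Genes of the formative and primed epiblast, the state that follows naive pluripotency, were mostly lower at day 10. Of 15, 14 fell and 1 rose, with a median log2FC of −2.94. Dnmt3b, the de novo DNA methyltransferase of the epiblast, had 72.1, 85.2 and 65.8 CPM at day 10, against 2101, 2139 and 2004 CPM at day 3 (log2FC −4.75 ± 0.09, adjusted p = 3.17e-13). Pou3f1, a POU factor of epiblast and neural cells, fell furthest (1.94, 1.88 and 1.77 CPM at day 10, against 83.8, 71.1 and 61.2 CPM at day 3; log2FC −5.21 ± 0.12). Fgf5, the growth factor that marks this state, had 5.19, 8.79 and 4.75 CPM at day 10, against 77, 80.2 and 81.7 CPM at day 3 (log2FC −3.61 ± 0.16). Otx2, which drives the exit from the naive state, had 14, 11.9 and 11.4 CPM at day 10, against 101, 101 and 97 CPM at day 3 (log2FC −2.94 ± 0.06). At day 0 Dnmt3b, Fgf5 and Otx2 averaged 217, 0.211 and 2.4 CPM, so all of them were highest at day 3. The member that rose was Cldn6, a tight junction gene that embryonic epithelia also use (log2FC 1.66 ± 0.05).

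**Figure D2:**
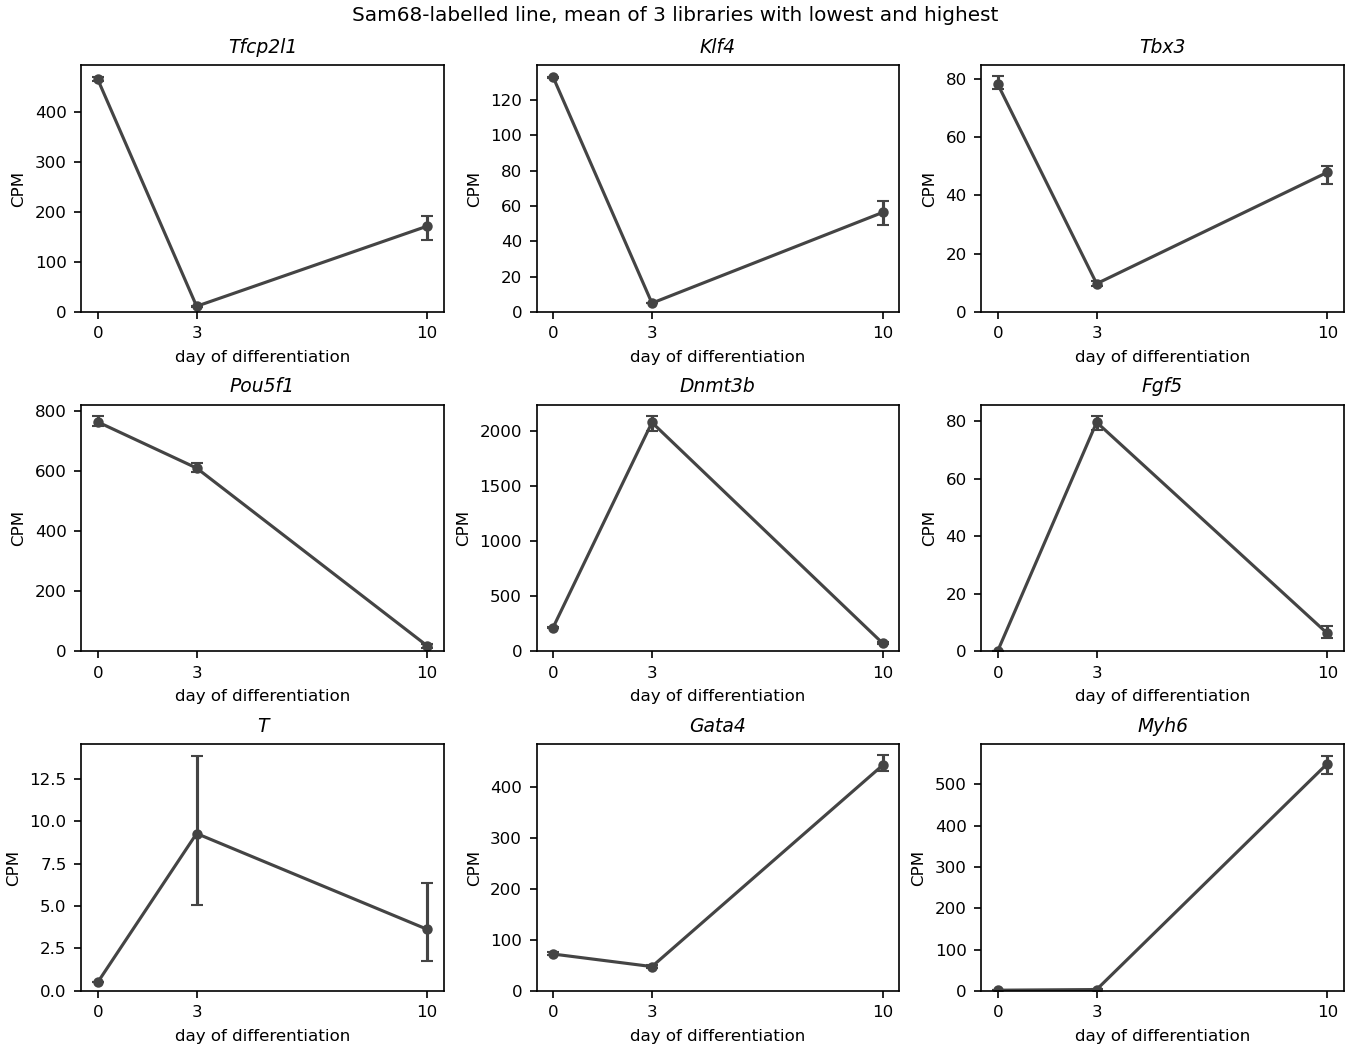
CPM (vertical axis, from 0) of 9 genes at days 0, 3 and 10 in the Sam68-labelled line; points are means of 3 libraries and bars run from the lowest to the highest. Tfcp2l1, Klf4 and Tbx3 are lowest at day 3, Dnmt3b, Fgf5 and T are highest at day 3, and Gata4 and Myh6 are highest at day 10.

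Primitive streak genes were mostly lower at day 10: 12 of 18 fell and 3 rose, with a median log2FC of −1.46. T (brachyury), the defining streak factor, had 2.79, 6.36 and 1.74 CPM at day 10, against 5.08, 8.89 and 13.9 CPM at day 3 (log2FC −1.29 ± 0.41, adjusted p = 0.0105). Its groups overlapped, with day 10 replicate 2 above day 3 replicate 1, and the call was lost without day 3 replicate 3 (log2FC −0.86, adjusted p = 0.0662) and with DESeq2 (adjusted p = 0.0626). Eomes, a T-box factor of streak and endoderm, had 4.81, 10.2 and 5.65 CPM at day 10, against 59.3, 78.9 and 91.2 CPM at day 3 (log2FC −3.41 ± 0.23). Mixl1, a homeobox factor of the same cells, had 0.458, 1.72 and 0.558 CPM at day 10, against 2.42, 2.72 and 4.28 CPM at day 3 (log2FC −1.72 ± 0.39). The ligand Fgf4 (log2FC −5.40 ± 0.18) and the Nodal antagonist Lefty1 (log2FC −4.93 ± 0.13) fell furthest. Nodal itself had 6.72, 8.87 and 5.96 CPM at day 10, against 101, 108 and 112 CPM at day 3 (log2FC −3.84 ± 0.11). Wnt3a (1.13, 0.311 and 0.979 CPM at day 10, against 0.0505, 0.112 and 0.11 CPM at day 3; log2FC 3.16 ± 0.53) and the antagonist Cer1 (log2FC 2.69 ± 0.36), which visceral endoderm also makes, rose. Mesp1, Lhx1 and Tbx6, factors of nascent mesoderm, were not called (adjusted p = 0.556, 0.0741 and 0.637). Without day 3 replicate 3, Mesp1 (log2FC 2.27, adjusted p = 0.0146) and Lhx1 (log2FC 0.99, adjusted p = 0.00714) passed as higher, and without day 10 replicate 3 Lhx1 did (adjusted p = 0.048).

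Heart muscle genes had the highest median of the 49 lists. Of 25 tested, 24 rose, 23 beyond 2-fold, and none fell. Their median log2FC was 8.17 with genes of no day 3 count at their lower bound. Myh6, the fast myosin heavy chain of the heart, had 556, 568 and 525 CPM at day 10, against 3.32, 3.18 and 2.93 CPM at day 3 (log2FC 7.51 ± 0.07, adjusted p = 3.5e-15). Myh7, the slow one, had 795, 629 and 791 CPM at day 10, against 0.286, 0.128 and 0.189 CPM at day 3 (log2FC 11.90 ± 0.16). Of the 50-base windows of each gene's exons, 20.2% for Myh6 and 20.04% for Myh7 also occur in another gene, so reads could be shared. Tnnt2, cardiac troponin T, had 284, 292 and 277 CPM at day 10, against 0.0842, 0.192 and 0.174 CPM at day 3 (log2FC 10.92 ± 0.10). Csrp3, a protein of the muscle Z-disc, had 49.4, 52.4 and 46 CPM at day 10, against 1 count in all at day 3, a ratio of day 10 over day 3 of 9139 (95% exact interval 1640.0 to 361020.0). Myl7, the atrial light chain, had 338, 350.5 and 288 CPM at day 10, against 0.488, 0.512 and 0.394 CPM at day 3 (log2FC 9.51 ± 0.12), and Myl2, the ventricular one, had 63, 60.8 and 75.6 CPM at day 10, against 0.0505, 0.016 and 0.0473 CPM at day 3 (log2FC 10.77 ± 0.17). All day 10 libraries lay above all day 3 libraries for each of these genes.

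The calcium and electrical machinery of the heart rose unevenly. Ryr2, the calcium release channel, had 168, 171 and 158 CPM at day 10, against 3.64, 3.53 and 3.41 CPM at day 3 (log2FC 5.61 ± 0.06). Hcn4, the pacemaker channel, had 35.3, 42.8 and 29.2 CPM at day 10, against 0.757, 0.863 and 0.757 CPM at day 3 (log2FC 5.55 ± 0.17). Atp2a2, a calcium pump that many cells use, rose by less than 2-fold (571, 608 and 547 CPM at day 10, against 361, 371 and 365 CPM at day 3; log2FC 0.71 ± 0.05). Pln, which restrains that pump, had 35.5, 28.5 and 48.8 CPM at day 10, against 1 count in all at day 3, a ratio of 6939 (95% exact interval 1245 to 274093). Nppa, the atrial natriuretic peptide, had 5.3, 3.79 and 4.9 CPM at day 10 and no count at day 3, so it was at least 288-fold higher. Bounds and intervals of this kind cover counting error only, and a bound rests on a floor of 3 counts over the day 3 libraries. Of the exon windows 56.2% of Pln and 53.4% of Nppa occur in another annotated gene.

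Heart transcription factors rose in 16 of 16 cases, 15 of them beyond 2-fold, with a median log2FC of 5.41. Hand2, a factor of the right ventricle, had 57.3, 55.1 and 61.4 CPM at day 10, against 0.0168, 0 and 0.0473 CPM at day 3 (log2FC 11.33 ± 0.15). Hand1, of the left ventricle and extraembryonic mesoderm, had 28.6, 24.6 and 32.1 CPM at day 10, against 0.0842, 0.256 and 0.126 CPM at day 3 (log2FC 7.55 ± 0.18). Nkx2-5, an early marker of heart progenitors, had 15.6, 13.3 and 15.8 CPM at day 10, against 0.454, 0.272 and 0.189 CPM at day 3 (log2FC 5.67 ± 0.17), and Tbx5 had 16.2, 18.7 and 15.2 CPM at day 10, against 0.0842, 0.0959 and 0.11 CPM at day 3 (log2FC 7.46 ± 0.17). Gata4, which heart and yolk sac endoderm share, was already read at day 3, with 434, 464 and 432 CPM at day 10, against 49.8, 48.8 and 44.4 CPM at day 3 (log2FC 3.28 ± 0.05). Wt1, a factor of the heart's outer layer, stood near its day 3 level (10.9, 14.4 and 10.5 CPM at day 10, against 10.5, 9.93 and 8.66 CPM at day 3; log2FC 0.36 ± 0.12), and with scaling by protein-coding genes its rise was not called (log2FC 0.19, adjusted p = 0.145).

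Acta1, the skeletal alpha-actin that the embryonic heart also uses, had 26.5, 23.9 and 17.1 CPM at day 10, against 0.303, 0.544 and 0.552 CPM at day 3 (log2FC 5.64 ± 0.22, adjusted p = 1.4e-10). Acta2, the smooth muscle alpha-actin, had 412, 413 and 327 CPM at day 10, against 0.219, 0.224 and 0.237 CPM at day 3 (log2FC 10.77 ± 0.15). Actc1, the cardiac alpha-actin (chromosome 2, 114047282 to 114053548), had 885, 865 and 745 CPM at day 10, against 0.421, 0.368 and 0.394 CPM at day 3 (log2FC 11.10 ± 0.11). Per kilobase of exon, the day 10 level was 514 CPM for Actc1, 175 CPM for Acta2 and 14.6 CPM for Acta1. The Acta1 promoter is shown because muscle actin genes are textbook targets of serum response factor, which binds the CArG box, and because the change of Acta1 differed more from wild type than that of any other named gene that rose further. The window runs from 250 to 11 bases before the RefSeq start site (GRCm38.p6) at chr8:123894786-123895025 on the minus strand, read 5′ to 3′. Capitals mark the CArG box, which begins 73 bases before the start.
Acta1: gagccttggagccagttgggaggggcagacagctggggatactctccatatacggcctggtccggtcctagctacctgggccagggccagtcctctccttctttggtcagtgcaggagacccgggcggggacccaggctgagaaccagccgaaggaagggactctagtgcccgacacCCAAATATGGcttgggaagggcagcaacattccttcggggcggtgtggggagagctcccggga
Of 27025 promoter windows of 250 bases, 1.4% hold a CArG box on either strand, and a match describes letters, not binding.

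Smooth muscle genes rose in 11 of 12 cases, with a median log2FC of 2.48, and 1 fell, Smtn (log2FC −0.30 ± 0.05). Actg2, the visceral smooth muscle actin, had 1.83, 2.41 and 2.37 CPM at day 10, against 0, 0.032 and 0 CPM at day 3, a ratio of 204 (95% exact interval 56.2 to 1689). Myocd, the coactivator of serum response factor in heart and smooth muscle, had 38.3, 36.4 and 36.4 CPM at day 10, against 0.404, 0.496 and 0.521 CPM at day 3 (log2FC 6.34 ± 0.08, adjusted p = 2.41e-14). Des, the muscle filament desmin, had 101, 90.8 and 92.6 CPM at day 10, against 10.03, 9.85 and 9.75 CPM at day 3 (log2FC 3.32 ± 0.05). Myh11, the myosin of mature smooth muscle, stayed low, with 0.419, 0.375 and 0.299 CPM at day 10, against 0.236, 0.192 and 0.205 CPM at day 3 (log2FC 0.85 ± 0.26). Of the skeletal muscle list, 5 of 10 genes were tested. Besides Acta1, the troponin gene Tnnt3 (log2FC 5.09 ± 0.30) and the caveolin gene Cav3 rose, Cav3 with no day 3 count and at least 29.9-fold. The embryonic myosin Myh3 fell (log2FC −4.14 ± 0.30), as did the skeletal master factor Myod1, with 0.0131, 0.0129 and 0 CPM at day 10, against 0.185, 0.304 and 0.442 CPM at day 3. Among 9 cartilage genes 7 rose, led by Hapln1 (log2FC 8.60 ± 0.16) and Col9a1 (log2FC 7.41 ± 0.40), while Acan (log2FC −4.60 ± 0.20) and Comp (log2FC −1.90 ± 0.14) fell.

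**Figure D3:**
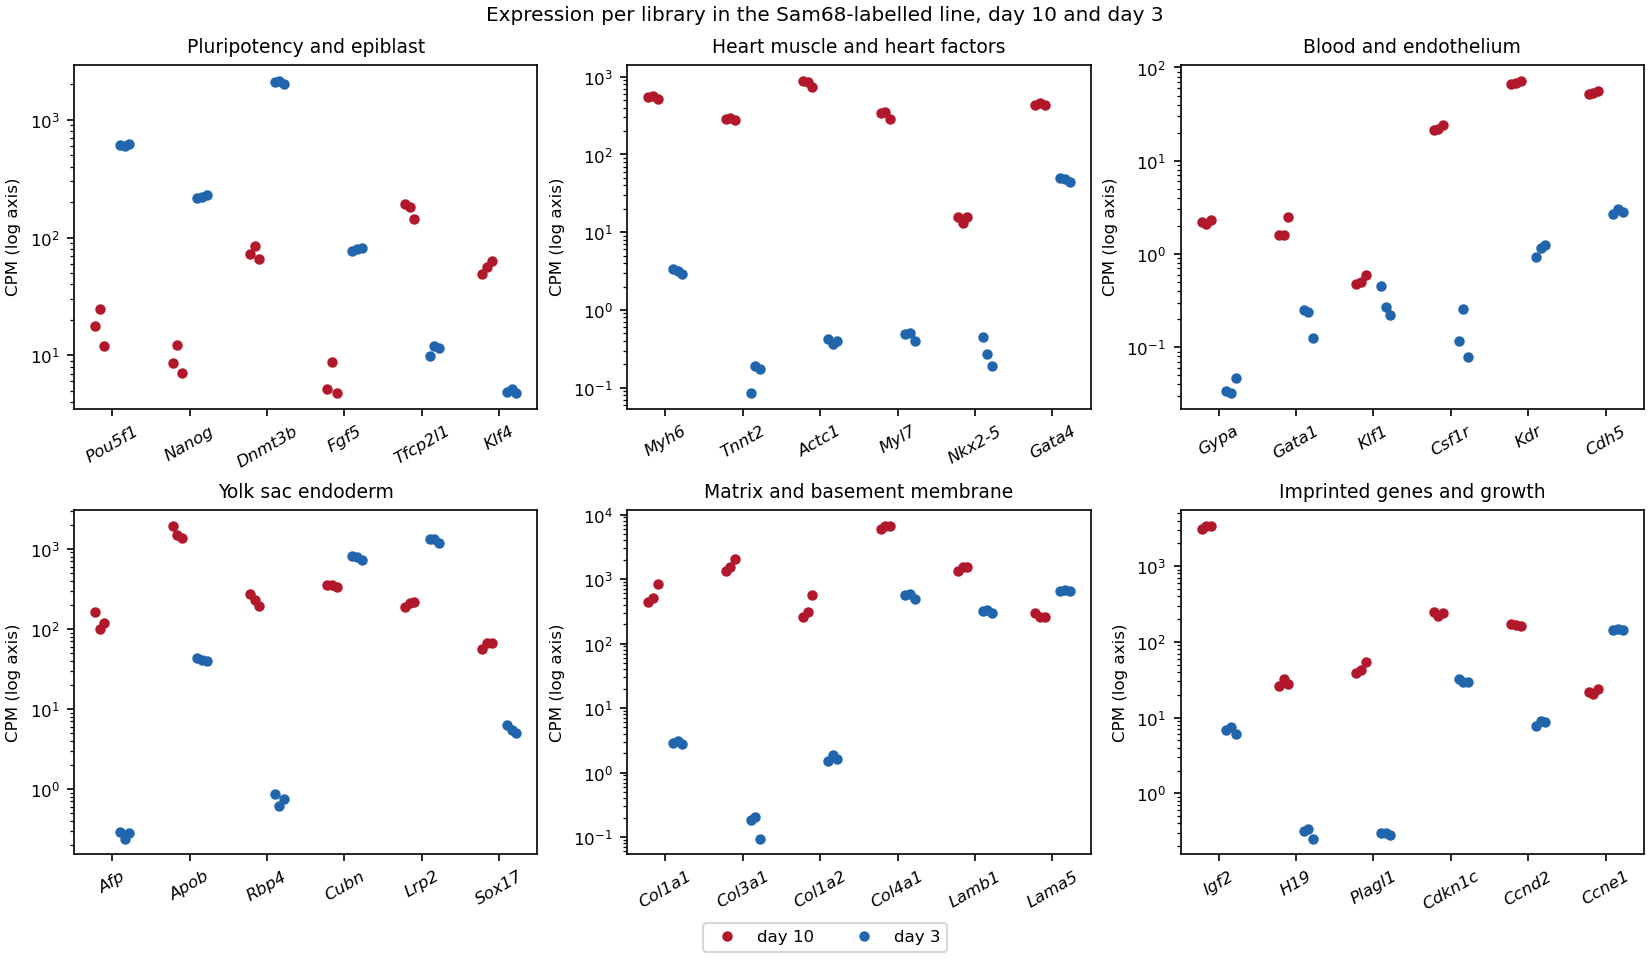
CPM per library (log axis) of 36 genes in the Sam68-labelled line, day 10 points to the left and day 3 points to the right of each gene, in 6 groups of genes. The day 10 points run from 11.9 to 24.6 CPM for Pou5f1 and from 525 to 568 CPM for Myh6, against 599 to 627 CPM for Pou5f1 and 2.93 to 3.32 CPM for Myh6 at day 3.

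Red cell genes rose in 19 of 19 cases, 16 beyond 2-fold, with the globins at the top. Hbb-y, the embryonic beta-globin of yolk sac red cells, had 32.3, 47.6 and 66.9 CPM at day 10 and no count at day 3, so it was at least 3008-fold higher (adjusted p = 1.04e-08). Hba-x, the embryonic alpha-like globin, had 39.9, 44.1 and 66.6 CPM at day 10, against 1 count in all at day 3, a ratio of 9261 (95% exact interval 1662 to 365822). Hba-a1, which embryo and adult share, had 14.2, 13.7 and 19 CPM at day 10 and no day 3 count, at least 963-fold higher, and 72.3% of its exon windows occur in another gene. Hbb-bh1, another embryonic beta-like globin, had 58.3, 52 and 59.7 CPM at day 10, against 0.0337, 0 and 0.0473 CPM at day 3 (log2FC 10.997 ± 0.16). Per kilobase of exon, the adult beta-globin Hbb-bs stood at 2.58 CPM at day 10, and Hbb-y at 77.3 CPM. Day 10 replicate 3 was the highest of its group for Hbb-y, Hba-x and Hba-a1.

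The windows before the starts of Hbb-y and Hba-x are shown because these globins came on from at most 1 count, and because GATA and Krüppel-like factors, which read GATAA and CACCC, are textbook regulators of globin genes. Both run from 250 to 11 bases before the RefSeq start (GRCm38.p6), Hbb-y at chr7:103853218-103853457 on the minus strand and Hba-x at chr11:32276350-32276589 on the plus strand. Capitals mark GATAA on either strand (read backwards in Hbb-y), CACCC on the strand shown, and the TATA box of Hba-x.
Hbb-y: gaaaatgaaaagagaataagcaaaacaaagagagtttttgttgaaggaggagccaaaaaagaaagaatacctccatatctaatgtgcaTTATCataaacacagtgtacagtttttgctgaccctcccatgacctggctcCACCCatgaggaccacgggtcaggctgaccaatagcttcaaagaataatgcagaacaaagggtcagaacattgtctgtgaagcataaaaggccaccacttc
Hba-x: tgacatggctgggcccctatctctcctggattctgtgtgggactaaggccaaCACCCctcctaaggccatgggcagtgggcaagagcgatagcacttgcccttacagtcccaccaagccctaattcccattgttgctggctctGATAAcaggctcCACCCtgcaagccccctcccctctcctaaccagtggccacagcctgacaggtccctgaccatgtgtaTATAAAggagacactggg
The GATAA match begins 162 bases before the start in Hbb-y and 107 in Hba-x. CACCC begins 111 bases before the start in Hbb-y, and 198 and 95 bases before it in Hba-x. The TATA box, searched as TATAAA, begins 28 bases before the start of Hba-x. On either strand, GATAA is in 23% of the 27025 promoter windows, CACCC in 51.3% and TATAAA in 13%, so such matches are common.

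The regulators of red cells moved less than the globins. Gata1, the erythroid GATA factor, had 1.6, 1.58 and 2.5 CPM at day 10, against 0.252, 0.24 and 0.126 CPM at day 3 (log2FC 3.25 ± 0.28, adjusted p = 2.71e-07). Tal1, which acts at the start of blood formation, had 8.05, 8.01 and 9.74 CPM at day 10, against 1.5, 1.49 and 1.51 CPM at day 3 (log2FC 2.57 ± 0.11). Klf1, the erythroid Krüppel-like factor, had 0.471, 0.505 and 0.599 CPM at day 10, against 0.454, 0.272 and 0.221 CPM at day 3 (log2FC 0.80 ± 0.27), and its call was lost without day 3 replicate 2 (adjusted p = 0.0615) or day 3 replicate 3 (adjusted p = 0.0693). Alas2, which starts haem synthesis in red cells, had 4.6, 4.35 and 5.85 CPM at day 10, against 0, 0.032 and 0.0316 CPM at day 3 (log2FC 7.77 ± 0.32).

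Macrophage and platelet genes rose in 18 of 18 cases. Their median log2FC was 7.03 with 6 genes of no day 3 count at their bounds. Csf1r, the receptor on which macrophages depend, had 21.1, 21.6 and 24.2 CPM at day 10, against 0.118, 0.256 and 0.0789 CPM at day 3 (log2FC 7.25 ± 0.17, adjusted p = 1.24e-12). Adgre1, the macrophage surface antigen F4/80, had 6.1, 7.27 and 9.45 CPM at day 10 and no day 3 count, at least 469-fold higher. Pf4, a chemokine of platelets and their precursors, had 18.3, 21 and 30.8 CPM at day 10 and no day 3 count, at least 1438-fold higher. Itga2b, the platelet integrin that also marks early blood progenitors, had 21.2, 20.6 and 34.1 CPM at day 10, against 0.993, 0.64 and 0.742 CPM at day 3 (log2FC 5.06 ± 0.23). Spi1, the master factor of macrophages, had 1.43, 2.01 and 2.2 CPM at day 10, against 0.101, 0.128 and 0.11 CPM at day 3 (log2FC 4.09 ± 0.27). For Pf4 and Itga2b, too, day 10 replicate 3 was the highest.

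Endothelial genes rose in 17 of 19 cases, with a median log2FC of 3.87. Kdr, the main receptor for vascular endothelial growth factor (chromosome 5, 75932827 to 75978458), had 66, 68.6 and 71.8 CPM at day 10, against 0.926, 1.17 and 1.25 CPM at day 3 (log2FC 6.0 ± 0.08, adjusted p = 1.83e-14). Tie1, a receptor of the vessel lining, had 25.6, 26.1 and 27.6 CPM at day 10, against 0.185, 0.112 and 0.0631 CPM at day 3 (log2FC 7.84 ± 0.14). Emcn, a mucin of veins and capillaries, had 4.3, 3.4 and 4.54 CPM at day 10 and no day 3 count, at least 252-fold higher. Cdh5, the junction protein VE-cadherin, had 51.4, 52.6 and 55.5 CPM at day 10, against 2.71, 3.04 and 2.84 CPM at day 3 (log2FC 4.27 ± 0.06). Flt1, the decoy receptor for the same growth factor, had 272, 285 and 268 CPM at day 10, against 12.1, 13.9 and 13.8 CPM at day 3 (log2FC 4.43 ± 0.06). Etv2, which starts the endothelial fate and is then shut off, was the member that fell (0.21, 0.388 and 0.354 CPM at day 10, against 2.29, 2.16 and 2.24 CPM at day 3; log2FC −2.75 ± 0.20). Eng, a TGF-beta coreceptor of vessels, was not called (adjusted p = 0.54), and passed as lower with scaling by protein-coding genes (log2FC −0.21, adjusted p = 0.00271).

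Yolk sac endoderm genes rose in 20 of 22 cases and fell in 2, all beyond 2-fold, with a median log2FC of 5.32 with 1 gene of no day 3 count at its bound. Apob, the scaffold of lipoprotein particles, had 1926, 1477 and 1349 CPM at day 10, against 43.3, 41.2 and 39.6 CPM at day 3 (log2FC 5.32 ± 0.12, adjusted p = 1.39e-12). The smaller apolipoprotein genes Apoa2 (84.7, 74.4 and 59.6 CPM at day 10, against 0.0673, 0.064 and 0.0316 CPM at day 3; log2FC 10.41 ± 0.24) and Apoa1 (log2FC 8.99 ± 0.24) led the list. Afp, the fetal serum protein alpha-fetoprotein, had 162, 99.7 and 119 CPM at day 10, against 0.286, 0.24 and 0.284 CPM at day 3 (log2FC 8.93 ± 0.25). Ttr, which carries thyroid hormone, had 315, 261 and 218 CPM at day 10, against 4.8, 3.26 and 3.11 CPM at day 3 (log2FC 6.22 ± 0.17). Day 10 replicate 1 was the highest of its group for Apob, Afp and Ttr. The 2 members that fell were the endocytic receptor genes Cubn and Lrp2 of the visceral endoderm, while Amn and Dab2, also on the list, rose. Cubn had 356, 358 and 329 CPM at day 10, against 816, 799 and 719.7 CPM at day 3 (log2FC −1.10 ± 0.06), and Lrp2 had 188, 212 and 215 CPM at day 10, against 1327, 1324 and 1173 CPM at day 3 (log2FC −2.58 ± 0.06). Hnf4a, which regulates lipoprotein genes, had 115, 114 and 109 CPM at day 10, against 7.81, 8.54 and 7.24 CPM at day 3 (log2FC 3.90 ± 0.06).

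Definitive endoderm genes rose in 10 of 11 cases. Sox17, shared by endoderm and vessels, had 56, 66 and 66.2 CPM at day 10, against 6.26, 5.44 and 5.05 CPM at day 3 (log2FC 3.55 ± 0.08, adjusted p = 1.5e-12). The pioneer factors Foxa1 (10.8, 9.16 and 10.5 CPM at day 10, against 0.539, 0.496 and 0.473 CPM at day 3; log2FC 4.39 ± 0.12) and Foxa2 (54, 49.9 and 56.8 CPM at day 10, against 7.09, 7.21 and 6.78 CPM at day 3; log2FC 2.99 ± 0.05) rose. Spink1, a protease inhibitor, rose furthest (313, 341 and 260.2 CPM at day 10, against 10.8, 9.8 and 8.11 CPM at day 3; log2FC 5.05 ± 0.12). Trh, a hormone precursor gene, was the member that fell (14.1, 20.5 and 12.2 CPM at day 10, against 637, 669.6 and 694 CPM at day 3; log2FC −5.36 ± 0.16). Of 10 keratin and claudin genes of epithelia, 9 rose and 1 fell, the tight junction gene Cldn3 (log2FC −0.37 ± 0.13), whose call was lost without day 10 replicate 2 (adjusted p = 0.0767), day 3 replicate 1 (adjusted p = 0.0535) or day 3 replicate 2 (adjusted p = 0.0759). The pore-forming claudin Cldn2 rose furthest (20.3, 16.7 and 15.8 CPM at day 10, against 0.0337, 0.032 and 0 CPM at day 3; log2FC 9.61 ± 0.26), followed by Krt18 (log2FC 4.34 ± 0.09). Of the trophoblast list 8 of 12 genes were tested, and Gata3 (log2FC 5.30 ± 0.22), Plac1 (log2FC 4.61 ± 0.19) and Cdx2, with 25.6, 24.5 and 23.8 CPM at day 10, against 1.144, 1.26 and 1.4 CPM at day 3 (log2FC 4.33 ± 0.09), rose, while Gcm1 (log2FC −1.87 ± 0.53) and Ascl2 (log2FC −1.03 ± 0.22) fell. The placental hormone gene Prl3d1 was at 0 counts in all 6 libraries.

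Of 20 matrix and mesenchyme genes, 19 rose, all beyond 2-fold, and 1 fell, Thy1 (log2FC −3.03 ± 0.14), with a median log2FC of 4.86. Postn, the matrix protein periostin, had 617, 589 and 637 CPM at day 10, against 3 counts in all at day 3, a ratio of 37912 (95% exact interval 12972 to 183839). Col3a1, a fibrillar collagen of soft tissue (chromosome 1, 45311538 to 45349706), had 1349, 1509 and 2038 CPM at day 10, against 0.185, 0.208 and 0.0947 CPM at day 3 (log2FC 13.34 ± 0.23, adjusted p = 1.14e-13). Col1a1, the main collagen of connective tissue, had 435, 514 and 834 CPM at day 10, against 2.91, 3.04 and 2.75 CPM at day 3 (log2FC 7.73 ± 0.25). For both collagens day 10 replicate 3 was the highest. Pdgfra, a growth factor receptor of mesenchyme, had 330.2, 376 and 386 CPM at day 10, against 19.4, 20.3 and 18.2 CPM at day 3 (log2FC 4.30 ± 0.07).

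Basement membrane genes rose by less than the fibrillar collagens. Of 13, 11 rose and 2 fell, with a median log2FC of 2.28. Col4a1, a chain of the network-forming collagen, had 5865, 6629.9 and 6605 CPM at day 10, against 561, 582 and 491 CPM at day 3 (log2FC 3.61 ± 0.07, adjusted p = 4.1e-13), and its partner Col4a2 stood at log2FC 3.68 ± 0.07. Sparc, which binds collagen, had 2765, 3099 and 3059 CPM at day 10, against 247, 244 and 208 CPM at day 3 (log2FC 3.73 ± 0.07). The laminin chain Lamb1 rose (1350.3, 1513 and 1519.6 CPM at day 10, against 314, 326 and 299.9 CPM at day 3; log2FC 2.28 ± 0.06). The laminin chain Lama5 (301, 261 and 254 CPM at day 10, against 647, 675 and 649.6 CPM at day 3; log2FC −1.21 ± 0.06) and the proteoglycan Hspg2 (log2FC −0.32 ± 0.06) fell. Of 14 genes of the switch between epithelium and mesenchyme, 10 rose and 4 fell. The repressor Snai2 (6.73, 6.41 and 8.12 CPM at day 10, against 0.151, 0.144 and 0.205 CPM at day 3; log2FC 5.45 ± 0.18) and the filament gene Vim (log2FC 3.54 ± 0.04) rose, and the epithelial genes Grhl2 (log2FC −1.53 ± 0.07) and Cdh1, E-cadherin (246, 234 and 213 CPM at day 10, against 459.6, 468 and 461 CPM at day 3; log2FC −0.94 ± 0.05), fell.

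Of 13 neuronal genes tested, 9 fell and 3 rose, with a median log2FC of −1.63. Ina, a neuronal intermediate filament, had 1.02, 1.27 and 1.33 CPM at day 10, against 67, 70.2 and 70.7 CPM at day 3 (log2FC −5.78 ± 0.07, adjusted p = 1.76e-14). Snap25, a protein of synaptic release, had 0.0524, 0.0777 and 0.0408 CPM at day 10, against 2.32, 2.59 and 2.04 CPM at day 3 (log2FC −5.24 ± 0.25). Gap43, a growth cone protein, rose (log2FC 1.01 ± 0.11). Among neural progenitor genes 4 of 11 rose and 5 fell. Irx3, a homeobox factor, had 18.6, 11.9 and 21.1 CPM at day 10, against 2.79, 2.54 and 2.02 CPM at day 3 (log2FC 2.87 ± 0.19). The filament gene Nes (log2FC −1.52 ± 0.06) and the factor Sox1 (3.5, 1.5 and 3.81 CPM at day 10, against 8.31, 6.95 and 5.6 CPM at day 3; log2FC −1.19 ± 0.25) fell. Day 10 replicate 2 was the lowest of its group for Sox1 and Irx3 and the highest for T, Mixl1 and Pou5f1.

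Of 39 Hox genes, which give cells their position along the body, 27 were tested, and 21 rose and 4 fell, with a median log2FC of 2.25. Hoxd8 rose with 1.7, 1.18 and 1.92 CPM at day 10, against 0.0168, 0.016 and 0.0158 CPM at day 3, a ratio of 98.5 (95% exact interval 33.4 to 479.7), and Hoxc8 with 1.22, 1.36 and 2.29 CPM at day 10, against 0.0505, 0.032 and 0.0789 CPM at day 3 (log2FC 4.91 ± 0.40). Hoxb2, an anterior member, had 6.08, 5.99 and 6.61 CPM at day 10, against 0.539, 0.64 and 0.615 CPM at day 3 (log2FC 3.43 ± 0.13, adjusted p = 6.64e-11). Hoxb13, a posterior member, fell, with 0.0262, 0 and 0 CPM at day 10, against 0.32, 0.256 and 0.363 CPM at day 3, a ratio of 0.0281 (95% exact interval 0.00333 to 0.106). Hoxb1, an anterior one, also fell (0.157, 0.0906 and 0.177 CPM at day 10, against 0.522, 0.56 and 0.505 CPM at day 3; log2FC −1.84 ± 0.27).

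Imprinted genes, which are expressed from 1 parental copy, rose in 15 of 22 cases and fell in 7, with a median log2FC of 2.94. Igf2, the fetal growth factor, had 3134, 3361 and 3382 CPM at day 10, against 6.77, 7.42 and 6.03 CPM at day 3 (log2FC 8.99 ± 0.08, adjusted p = 3.5e-15), and 62.1% of its exon windows occur in another annotated gene. Its neighbour H19, a noncoding RNA, had 25.9, 31.9 and 28.1 CPM at day 10, against 0.32, 0.336 and 0.252 CPM at day 3 (log2FC 6.62 ± 0.13). Plagl1, a regulator of other imprinted genes, had 38.6, 42.4 and 54.4 CPM at day 10, against 0.303, 0.304 and 0.284 CPM at day 3 (log2FC 7.30 ± 0.18). Igf2r, the receptor that clears Igf2, had 1834, 1688 and 1766 CPM at day 10, against 280.4, 298 and 279 CPM at day 3 (log2FC 2.68 ± 0.05). Airn, the noncoding RNA that overlaps Igf2r on the other strand, stood at log2FC 5.51 ± 0.11. The strand setting of the counting is not given in the sources used here, so reads of overlapping partners may be mixed. Snrpn (log2FC −2.72 ± 0.07) and Magel2 (log2FC −1.93 ± 0.11) fell, as did the antisense RNA Kcnq1ot1, with 90.4, 105 and 117 CPM at day 10, against 417, 396 and 385 CPM at day 3 (log2FC −1.88 ± 0.07).

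Germline genes, many of which DNA methylation keeps silent in somatic cells, fell in 9 of 10 cases, with a median log2FC of −3.27. Ddx4, an RNA helicase of germ cells, had 0.327, 0.285 and 0.19 CPM at day 10, against 13.8, 14.3 and 15.1 CPM at day 3 (log2FC −5.67 ± 0.14, adjusted p = 1.88e-12), and Tex101, a surface protein of germ cells, had 0.0262, 0 and 0 CPM at day 10, against 0.286, 0.256 and 0.252 CPM at day 3. Rhox5, a homeobox gene of extraembryonic tissue and testis, was the member that rose (100.1, 108 and 101 CPM at day 10, against 23.7, 23 and 19.9 CPM at day 3; log2FC 2.28 ± 0.06). Of 9 genes for DNA methylation and its removal, 7 fell, Dnmt3l (1.72, 0.673 and 0.871 CPM at day 10, against 43, 43 and 46.3 CPM at day 3; log2FC −5.28 ± 0.17) and Dnmt3b furthest. Tet1, which oxidises methylated cytosine in stem cells, had 71.4, 72.6 and 68.3 CPM at day 10, against 326, 325 and 327 CPM at day 3 (log2FC −2.14 ± 0.04). Its relatives Tet2 (log2FC 1.68 ± 0.04) and Tet3 (log2FC 1.87 ± 0.04) rose. Of 17 Polycomb subunits 7 rose, among them Cbx8 (log2FC 2.84 ± 0.10), and 9 fell, with the stem cell subunit Cbx7 (log2FC −1.03 ± 0.05) and Eed (log2FC −0.84 ± 0.04) lowest.

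Genes of the bone morphogenetic protein (BMP) and TGF-beta pathways rose in 16 of 18 cases, with a median log2FC of 3.60. Of the ligands, Bmp5 had 32, 29.5 and 31.6 CPM at day 10, against 0.269, 0.176 and 0.268 CPM at day 3 (log2FC 7.08 ± 0.11, adjusted p = 4.34e-14), Bmp2 had 23.6, 23.9 and 22.1 CPM at day 10, against 1.41, 1.44 and 1.26 CPM at day 3 (log2FC 4.14 ± 0.08), and Tgfb2 had 49.98, 50.1 and 48.7 CPM at day 10, against 0.454, 0.767 and 0.805 CPM at day 3 (log2FC 6.24 ± 0.10). Of the targets, Tgfbi, a matrix protein that TGF-beta induces, had 67, 85 and 82.6 CPM at day 10, against 1.09, 0.831 and 0.899 CPM at day 3 (log2FC 6.44 ± 0.12), and Id1, which BMP signals switch on directly, had 96, 82.9 and 83.6 CPM at day 10, against 6.18, 6.38 and 7.24 CPM at day 3 (log2FC 3.79 ± 0.08). The inhibitor Smad7 was the member that fell (log2FC −0.85 ± 0.05). The BMP antagonist Chrd was not called (adjusted p = 0.13), and passed as higher without day 3 replicate 3 (log2FC 0.26, adjusted p = 0.0446).

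Of 20 Wnt genes 12 rose and 5 fell. The ligands Wnt2 (16.4, 19.9 and 14.9 CPM at day 10, against 0.0842, 0.128 and 0.0947 CPM at day 3; log2FC 7.41 ± 0.20) and Wnt5a (33.3, 27.1 and 34.3 CPM at day 10, against 0.168, 0.4 and 0.473 CPM at day 3; log2FC 6.54 ± 0.17) rose furthest. Wnt8a, a ligand of the streak, fell furthest (0.602, 1.49 and 0.639 CPM at day 10, against 30.5, 39.95 and 45.7 CPM at day 3; log2FC −5.34 ± 0.24), followed by the secreted modulator Sfrp2 (log2FC −2.49 ± 0.15). Axin2, a general target of canonical Wnt signals, had 18.6, 13.5 and 20.1 CPM at day 10, against 44.8, 55.8 and 57.5 CPM at day 3 (log2FC −1.54 ± 0.12). Of 14 genes of fibroblast growth factor signalling, 7 rose, led by the ligand Fgf1 (log2FC 3.92 ± 0.17) and the receptor Fgfr3 (log2FC 3.23 ± 0.08), and 7 fell, led by the ligands Fgf17 (log2FC −2.97 ± 0.14) and Fgf15 (log2FC −1.74 ± 0.11). The feedback inhibitor Spry4 also fell (26.5, 29.6 and 26.9 CPM at day 10, against 79.9, 82.1 and 78.8 CPM at day 3; log2FC −1.48 ± 0.05). Of 14 retinoic acid genes 12 rose, the receptor Rarb (32.1, 31.9 and 30.6 CPM at day 10, against 0.269, 0.256 and 0.3 CPM at day 3; log2FC 6.89 ± 0.09) and the synthetic enzyme Aldh1a1 (log2FC 6.67 ± 0.40) furthest, while the receptor Rarg (log2FC −2.42 ± 0.05) and the degrading enzyme Cyp26c1 (log2FC −0.83 ± 0.34) fell. The call of Cyp26c1 was lost without day 10 replicate 2 or 3 or day 3 replicate 1 or 2, with adjusted p between 0.0792 and 0.17. Of 16 Notch genes 8 rose, the endothelial ligand Dll4 (log2FC 4.66 ± 0.27) and the target Heyl (log2FC 3.71 ± 0.38) furthest, and 6 fell, the ligands Dll3 (log2FC −3.24 ± 0.12) and Jag2 (log2FC −1.94 ± 0.06) furthest.

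All 21 genes of DNA replication and mitosis were lower at day 10, 9 of them beyond 2-fold, with a median log2FC of −0.84. Ccne1, the cyclin of the start of replication, had 21.5, 20.8 and 23.7 CPM at day 10, against 142, 148 and 145 CPM at day 3 (log2FC −2.66 ± 0.05, adjusted p = 1.06e-13). Mcm2, a subunit of the replicative helicase, had 145, 146 and 148 CPM at day 10, against 436, 459.6 and 443 CPM at day 3 (log2FC −1.55 ± 0.04). Of 12 genes that gate entry into the cycle, 10 rose. The cyclin Ccnd2 (chromosome 6, 127125162 to 127152193) had 171, 166 and 163 CPM at day 10, against 7.71, 8.95 and 8.69 CPM at day 3 (log2FC 4.36 ± 0.06), while Ccnd1, its relative, had 53, 45 and 59.5 CPM at day 10, against 157, 162 and 152 CPM at day 3 (log2FC −1.53 ± 0.07). The inhibitors Cdkn2a (7.23, 7.84 and 7.09 CPM at day 10, against 1.144, 0.927 and 0.836 CPM at day 3; log2FC 2.99 ± 0.13) and Cdkn1a (log2FC 2.18 ± 0.06) rose. Cdkn1c, an inhibitor counted with the imprinted genes and not in this list, also rose (248, 219 and 244 CPM at day 10, against 32, 29.7 and 29.5 CPM at day 3; log2FC 3.02 ± 0.05). The growth suppressor Rb1 fell slightly (log2FC −0.13 ± 0.05), a call that was lost without day 10 replicate 1 or 2 or day 3 replicate 1 or 3 (adjusted p between 0.0587 and 0.169).

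Cholesterol synthesis genes fell in 16 of 18 cases, with a median log2FC of −0.97. Fdps, which makes the isoprenoid building block, had 2.2, 1.77 and 2.22 CPM at day 10, against 15.8, 15.5 and 13.4 CPM at day 3 (log2FC −2.79 ± 0.10, adjusted p = 6.94e-11), and Sqle, which oxidises squalene on the way to sterols, had 57.1, 53.6 and 57.6 CPM at day 10, against 203, 199 and 199 CPM at day 3 (log2FC −1.78 ± 0.04). Insig1, which holds this pathway back, was the member that rose (280.2, 270.3 and 291 CPM at day 10, against 88.2, 80.9 and 80.5 CPM at day 3; log2FC 1.81 ± 0.04). Hypoxia and glycolysis genes rose in 14 of 17 cases. The peptide hormone gene Adm had 7.19, 6.5 and 5.52 CPM at day 10, against 0.404, 0.256 and 0.252 CPM at day 3 (log2FC 4.46 ± 0.19), the collagen hydroxylase P4ha1 stood at log2FC 3.74 ± 0.06, and Vegfa had 140.1, 128 and 136 CPM at day 10, against 14.8, 14.5 and 11.4 CPM at day 3 (log2FC 3.37 ± 0.08). The kinase genes Pdk1 (log2FC −0.49 ± 0.04) and Pfkfb4 (log2FC −0.34 ± 0.09) fell. Interferon-induced genes rose in 8 of 11 cases, among them Ifit3 (1.72, 2.175 and 1.88 CPM at day 10, against 0.0168, 0 and 0.0158 CPM at day 3) and Ifit1 (log2FC 7.21 ± 0.43), and Psmb8 (log2FC −1.30 ± 0.28) and Bst2 (log2FC −1.26 ± 0.11) fell. Summed over the list, the level did not rise, with 48.2 to 61.6 CPM at day 10, against 61.4 to 68.8 CPM at day 3.

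Splicing regulators of differentiated tissues took both directions, 8 of 21 rising and 11 falling. Rbm24, a splicing factor of heart and skeletal muscle (chromosome 13, 46418434 to 46431095), had 53.7, 48.8 and 47 CPM at day 10, against 0.623, 0.48 and 0.426 CPM at day 3 (log2FC 6.67 ± 0.10, adjusted p = 5.72e-14). Rbm20, which acts on titin in the heart, had 30.4, 26 and 27 CPM at day 10, against 6.08, 6 and 6.67 CPM at day 3 (log2FC 2.21 ± 0.07). Mbnl1 (log2FC 1.46 ± 0.06) and Mbnl2 (log2FC 1.99 ± 0.04), which favour adult exon choices, rose. The neuronal regulators Elavl2 (3.71, 3.83 and 4.3 CPM at day 10, against 34.5, 34.9 and 33 CPM at day 3; log2FC −3.05 ± 0.06) and Srrm4 (log2FC −2.84 ± 0.19) fell furthest. The general SR proteins and hnRNPs fell in 18 of 19 cases with a median log2FC of −0.78, Hnrnpa2b1 (299.6, 294 and 335 CPM at day 10, against 701, 675 and 669.7 CPM at day 3; log2FC −1.08 ± 0.05) and Srsf1 (log2FC −1.01 ± 0.06) furthest.

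Genes that averaged 1 CPM or more over the 6 libraries were ranked by fitted log2FC. The 10 largest rises were those of Postn, Hspb7, Hbb-y, Pf4, Col3a1, Hba-a1, Lum, Cavin2, Hba-x and Csrp3. Where a gene had no day 3 count, its fitted value depends on the prior count, a small count that the fit adds. The counts therefore do not settle the rank of such a gene. Hspb7, a small heat shock protein of heart muscle, had 59.1, 55.1 and 54.5 CPM at day 10 and no count at day 3, at least 3475-fold higher. Lum, the matrix proteoglycan lumican, had 79.4, 79.3 and 123 CPM at day 10, against 0.0168, 0 and 0.0158 CPM at day 3, a ratio of 8662 (95% exact interval 2398 to 71530.1). Cavin2, a coat protein of caveolae, had 12.4, 11.6 and 15.5 CPM at day 10 and no day 3 count, at least 811-fold higher. The 10 largest falls were those of Cyp2j13, Hist1h2aa, Hist1h2ba, Clvs2, Btla, Nphs1os, Platr10, Kis2, Epp13 and Cdh9. Platr10, a noncoding RNA named for its association with pluripotency, had 1.19, 1.48 and 0.653 CPM at day 10, against 138, 133 and 128 CPM at day 3 (log2FC −6.84 ± 0.13). Kis2, another noncoding RNA, had 0.406, 0.505 and 0.408 CPM at day 10, against 54.3, 50.8 and 49.7 CPM at day 3 (log2FC −6.81 ± 0.08). Hist1h2aa, a histone variant known from testis, had 0.0655, 0 and 0 CPM at day 10, against 6.77, 6.7 and 6.93 CPM at day 3 (log2FC −8.10 ± 0.34). Hist1h2ba, its partner, had 0.0131, 0.0129 and 0 CPM at day 10, against 2.44, 2.88 and 3.41 CPM at day 3. Cyp2j13, a cytochrome P450 gene, had 3 counts in all at day 10, a ratio of day 10 over day 3 of 0.00219 (95% exact interval 0.000451 to 0.00642). Nphs1os lies on the strand opposite another gene, with 27.8% of its windows shared, so its fall is uncertain.

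The change between the days was then set against the same change in the other lines, by the interaction of line and day in edgeR on 12 libraries. Against wild type, 11673 of 21541 genes differed in their change (54.2%), 6518 of them with a higher change in the Sam68-labelled line (30.3%) and 5155 with a lower one (23.9%). Higher calls made up 55.8% of the calls, and 42.5% with scaling by protein-coding genes (4752 higher, 6418 lower), which shifts the differences by −0.16 in the median. Against Quaking KO, 12011 of 21572 differed (55.7%), 5922 with a higher change (27.5%) and 6089 with a lower one (28.2%). Both comparisons use the same 6 Sam68-labelled libraries. The other lines were uneven at day 3, where mt-Rnr2 took 9.53%, 6.54% and 5.82% of counts in wild type and 10.96%, 5.64% and 5.64% in Quaking KO. At day 10 it took 8.55% to 9.34% in wild type and 7.81% to 9.81% in Quaking KO. The part of this unevenness in the differences was not tested. The Sam68 label, the clone and the range of library numbers cannot be told apart, so a difference is one between these sets of libraries. Differences are given in log2 units ± standard error, the Sam68-labelled line minus the other, and their medians were 0.06 against wild type and −0.04 against Quaking KO.

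Most genes of the heart muscle list rose further in the Sam68-labelled line. Against wild type the change was higher for 16 of 25 and lower for none, and the same counts were found against Quaking KO. Of 12 smooth muscle genes 6 had a higher change than in wild type and 2 a lower one, and against Quaking KO the counts were 7 and 2. Heart transcription factors did not lean that way, with 4 of 16 higher and 4 lower against wild type (median 0.04). Against Quaking KO 4 of them were higher and 6 lower (median −0.28). Actc1 averaged 832 CPM at day 10 and 0.394 CPM at day 3 in the Sam68-labelled line, and 330.3 and 2.37 CPM in wild type, a difference in change of 4.16 ± 0.24 (adjusted p = 1.35e-08). Acta1 averaged 22.5 and 0.466 CPM at days 10 and 3 in the Sam68-labelled line, and 3.31 and 1.72 CPM in wild type (4.88 ± 0.35, adjusted p = 8.86e-08). For Acta2 the averages were 384 and 0.226 CPM in the Sam68-labelled line, and 163 and 1.92 CPM in wild type (4.55 ± 0.34). The average of each of these actins was higher at day 10 and lower at day 3 in the Sam68-labelled line than in wild type. Against Quaking KO the differences were 5.39 for Actc1, 5.71 for Acta1 and 4.82 for Acta2. Some heart genes did not pass the test: the difference from wild type was 0.03 ± 0.10 for Myh6 (adjusted p = 0.805) and 0.35 ± 0.33 for Nkx2-5 (adjusted p = 0.392).

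**Figure D4:**
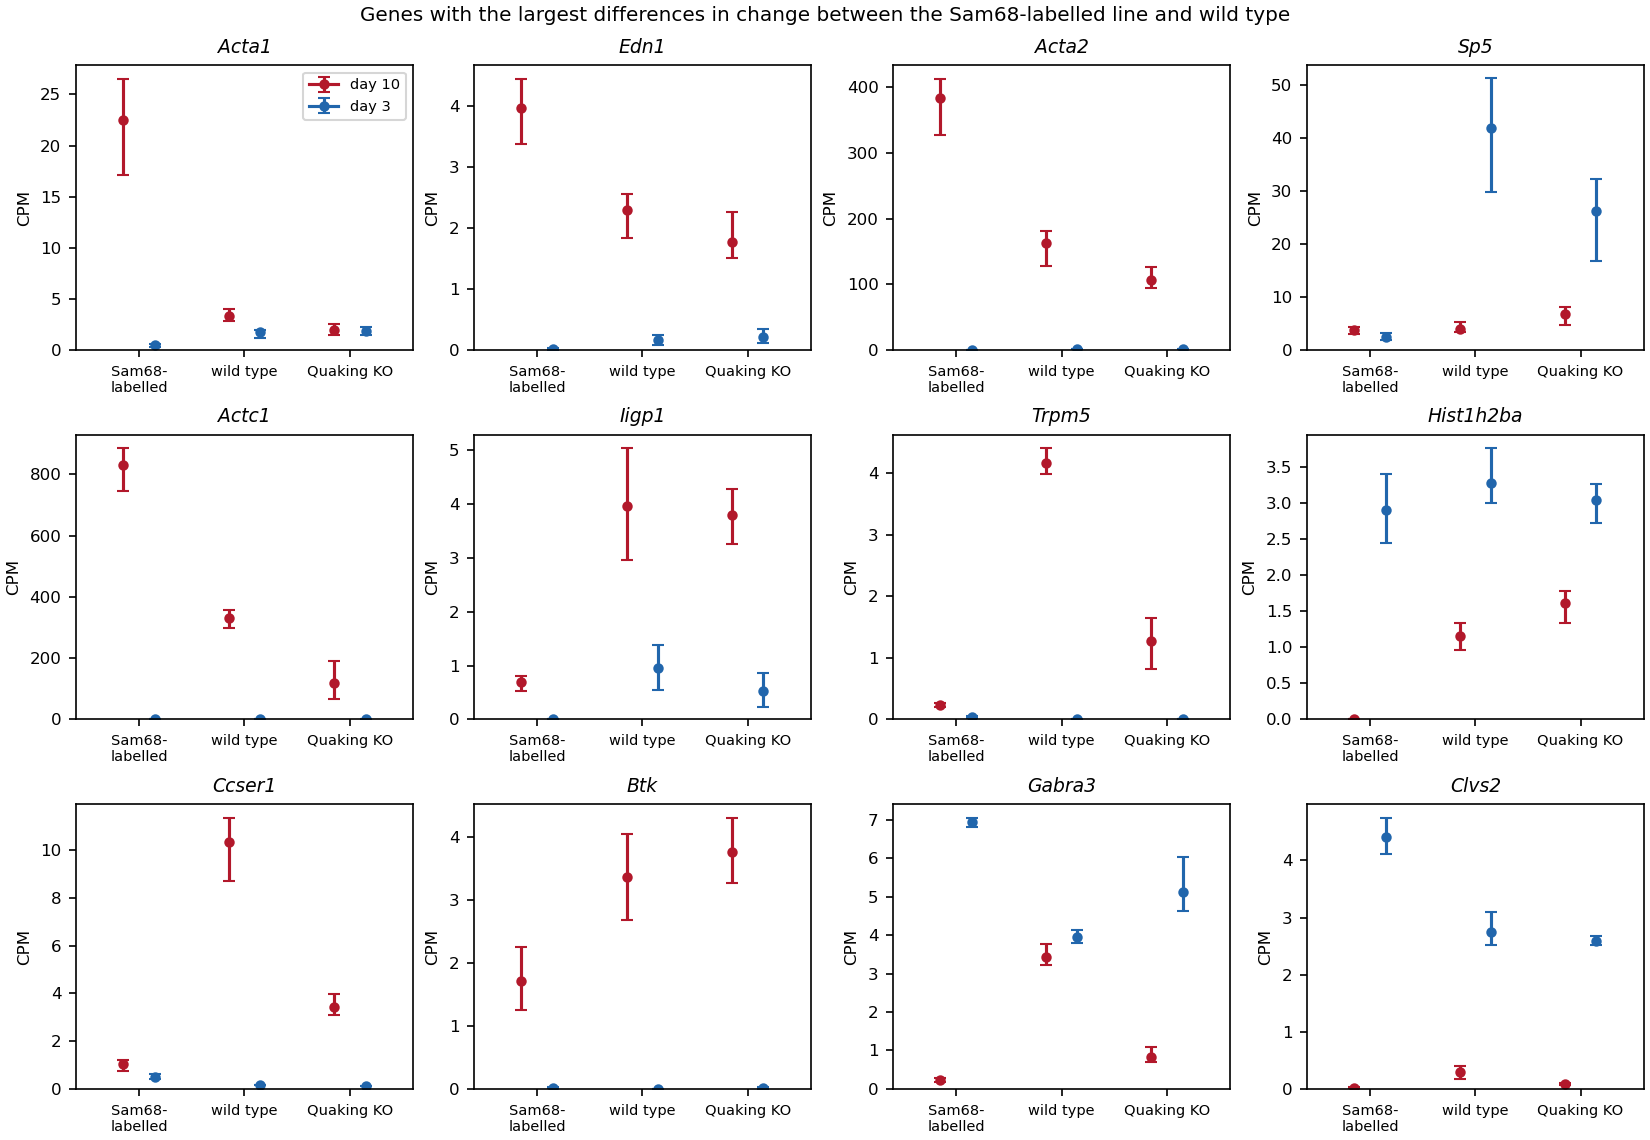
Mean CPM at day 10 (left point) and day 3 (right point) in the Sam68-labelled, wild-type and Quaking KO lines for the 12 genes with the largest differences in change from wild type; bars run from the lowest to the highest of 3 libraries. Acta1, Acta2 and Actc1 are highest in the Sam68-labelled line at day 10, and Trpm5 and Ccser1 are highest in wild type at day 10.

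Edn1, the vessel-constricting peptide endothelin 1, averaged 3.96 CPM at day 10, against 2 counts in all at day 3, in the Sam68-labelled line, and 2.3 and 0.156 CPM at those days in wild type. Sp5, a Wnt target of the streak, averaged 3.77 and 2.5 CPM in the Sam68-labelled line, and 4.04 and 41.9 CPM in wild type (4.20 ± 0.32, adjusted p = 1.48e-07). The day 10 averages of Sp5 were alike and those of day 3 were not. Of 18 streak genes 11 had a higher change and 2 a lower one than in wild type, while against Quaking KO 4 were higher and 5 lower. T averaged 3.63 and 9.29 CPM in the Sam68-labelled line, and 11.6 and 266 CPM in wild type (3.40 ± 0.54, adjusted p = 0.000107). Of 14 naive genes 9 had a higher change and none a lower one (8 and 1 with scaling by protein-coding genes), and against Quaking KO the counts were 10 and 1. Tfcp2l1 averaged 172 and 11.2 CPM in the Sam68-labelled line, and 36.3 and 27 CPM in wild type (3.75 ± 0.18, adjusted p = 3.08e-09). Foxa2 averaged 53.6 and 7.03 CPM in the Sam68-labelled line, and 27.8 and 26.1 CPM in wild type (3.08 ± 0.14), and for Cdx2 the difference was 3.52 ± 0.21.

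Rbm24, the splicing factor of muscle, rose further than in wild type (2.61 ± 0.16, adjusted p = 2.52e-08), as did Rbm20 (1.94 ± 0.14). Nuclear genes of the respiratory chain had a higher change than in wild type in 17 of 20 cases (median 0.63), and cytosolic ribosomal proteins in 16 of 17 (median 0.38). With scaling by protein-coding genes these counts were 14 and 3, and none was lower. Against Quaking KO the change was higher in 17 and 17 cases. Rpph1, the RNA of ribonuclease P, had 2362, 2445 and 2689 CPM at day 10, against 119.7, 229 and 387 CPM at day 3 in the Sam68-labelled line, and averaged 3746 and 4971 CPM at those days in wild type (3.99 ± 0.43), with 68.1% of its windows shared with other genes. The part of these low day 3 values of Rpph1 in the other differences was not tested.

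Many matrix and endothelial genes had a lower change in the Sam68-labelled line. Against wild type the change was lower for 12 of 20 matrix genes and higher for none, and against Quaking KO 13 were lower and 1 higher. With DESeq2, with the replicate number as a block, or without the filter on low counts, 2 were higher than in wild type. Dcn, the proteoglycan decorin, averaged 34.1 and 0.635 CPM at days 10 and 3 in the Sam68-labelled line, and 126 and 0.306 CPM in wild type (−2.70 ± 0.48, adjusted p = 0.000269). Of 19 endothelial genes 9 had a lower change and 2 a higher one, and against Quaking KO the counts were 11 and 2. Cdh5 averaged 53.1 and 2.86 CPM in the Sam68-labelled line, and 56 and 0.507 CPM in wild type (−2.33 ± 0.16). Flt1 went the other way, with 275 and 13.3 CPM in the Sam68-labelled line, and 125 and 24.6 CPM in wild type (2.26 ± 0.13). Of 18 macrophage and platelet genes 5 had a lower change than in wild type and none a higher one, a share near the 23.9% over all genes, and the other members did not pass the test. Against Quaking KO 7 were lower and none higher. Csf1r averaged 22.3 and 0.151 CPM in the Sam68-labelled line, and 85.8 and 0.108 CPM in wild type (−2.18 ± 0.48, adjusted p = 0.00155).

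Of the 27 Hox genes tested within the Sam68-labelled line, 15 had a lower change than in wild type and 3 a higher one, and against Quaking KO the counts were 12 and 3. Against wild type 10 more Hox genes were tested, which passed the filter on low counts only with the wild-type libraries added, so that a lower change was favoured by the filter, and they are left out of these counts. Hoxa10 averaged 0.878 and 0.336 CPM at days 10 and 3 in the Sam68-labelled line, and 7.21 and 0.237 CPM in wild type (−3.30 ± 0.41, adjusted p = 1.39e-05). Aldh1a2, which makes retinoic acid in mesoderm, averaged 1.84 and 0.753 CPM in the Sam68-labelled line, and 16 and 0.786 CPM in wild type (−2.82 ± 0.33). For Wt1 the difference was −3.06 ± 0.19, with day 10 averages of 11.9 CPM in the Sam68-labelled line and 30.8 CPM in wild type. Of the 11 neural progenitor genes tested within the line, 8 had a lower change than in wild type and none a higher one, and against Quaking KO 9 were lower and none higher.

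**Figure D5:**
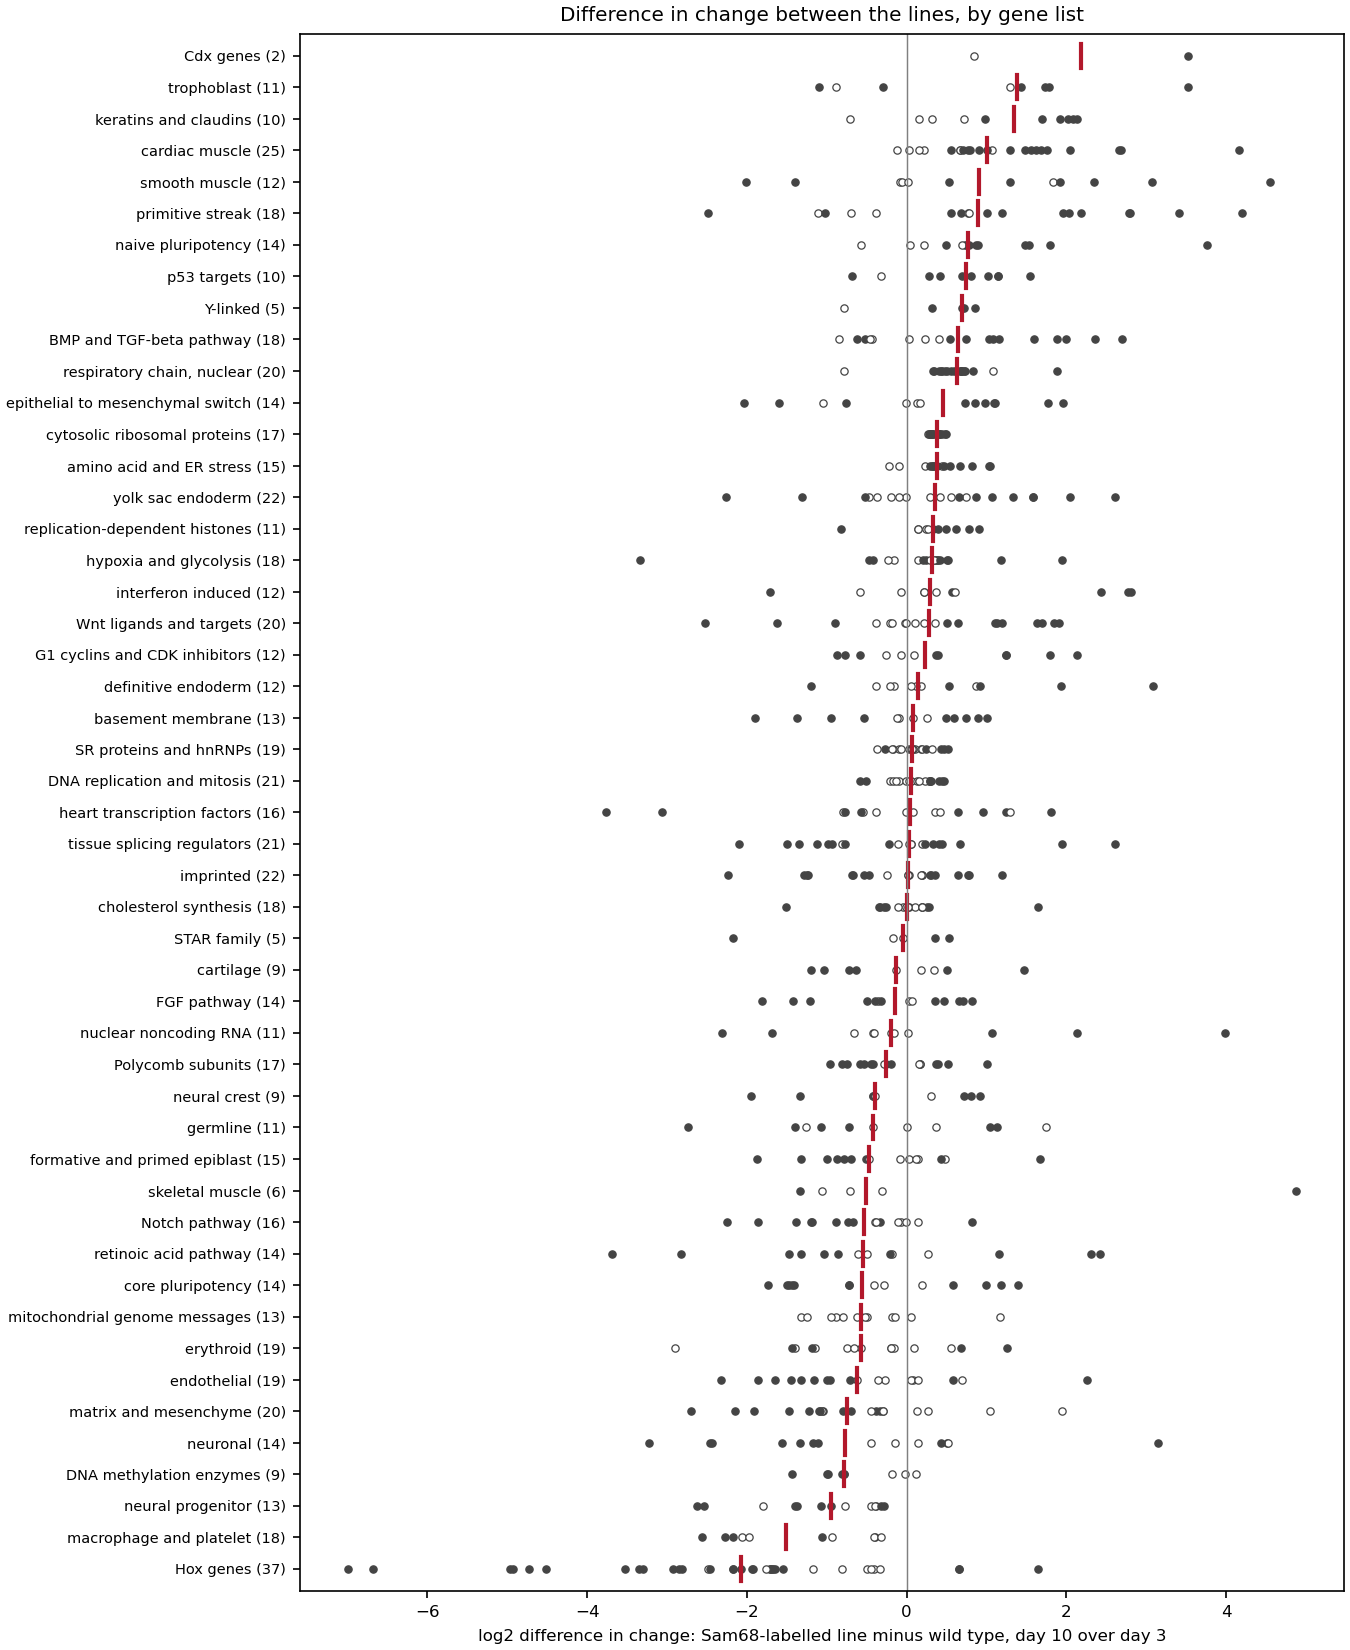
Difference between the log2 changes of the Sam68-labelled line and of wild type, day 10 over day 3 (horizontal axis), for the members of 49 gene lists (rows, number tested in parentheses). Filled points passed the test and open points did not, and red bars are medians of the fitted differences of all members tested. Genes without a count in a group are not drawn as points. They are in the medians, with fitted values that depend on the prior count. Hox genes have the lowest median, also over the 27 tested within the Sam68-labelled line (−1.71), and the cardiac, ribosomal protein and respiratory chain lists lie mostly right of 0.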

How the data were processed

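The 27 count tables, 1 for each library, hold raw read counts per gene identifier as deposited by the authors, with no normalisation. Per the submitters' processing notes, the reads were handled with STAR 2.5.3a and bcl2fastq 2.17.1.14 on build GRCm38 (mm10). Which program counted them, with which annotation and whether by strand, is not given in the sources used here, so overlapping and antisense genes are uncertain. Groups follow the labels, also for 1 day 10 library whose file name differs from its label. Of 51826 identifiers, 51633 (99.6%) were matched to GENCODE M21 on GRCm38 for symbols, exon lengths and coordinates.

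Genes were kept by filterByExpr (minimum count 10, minimum total 15), scaled by TMM (factors 0.970 to 1.03) and tested with edgeR 4.0.16 (limma 3.58.1, R 4.3.3; quasi-likelihood test, glmTreat against a 2-fold change, Benjamini-Hochberg adjustment). The biological coefficient of variation was 5.64%, and tested genes had a median of 584 counts per library. Both the spread between libraries and the number of counts limit the precision. Intervals and floors cover counting error only, and p-values measure the spread between these libraries, which may be technical. Interactions of line and day were fitted on 12 libraries. The steps were tested on simulated data in which few genes changed, which does not test the scaling where most genes move. Promoters are RefSeq sequences (GRCm38.p6), 4 of 4 looked up being matched.

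The text names STAR family genes. It also names the 10 furthest in each direction by fitted log2FC among genes averaging 1 CPM or more whose days do not overlap. It names the 6 largest differences from wild type per direction among genes averaging 1 CPM or more whose changes do not overlap between the lines. Pseudogenes and predicted gene models were left out of these rankings. The 2 largest changes per direction in each of 49 gene lists are named too, and list members where their role is described. Members and lists were chosen with earlier results of these data known. Alternatives were other scalings, no filter, DESeq2 1.42.0, other sets of genes and libraries, and leaving out each library. Some members of the lists are not reported here.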

Additional observations from a re-analysis of the deposited data

Results flagged for a closer look

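Genes whose change between the days differed between the Sam68-labelled line and another line, by the interaction test in edgeR, numbered 11673 against wild type and 12011 against Quaking KO. Values below are differences in log2 change against wild type ± standard error, the Sam68-labelled line minus wild type, with adjusted p from that test.

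The change was higher in the Sam68-labelled line for the muscle actins Acta1 (4.88 ± 0.35, adjusted p = 8.86e-08), Acta2 (4.55 ± 0.34, adjusted p = 1.28e-07) and Actc1 (4.16 ± 0.24, adjusted p = 1.35e-08). Edn1 differed by 4.68 ± 0.87 (adjusted p = 0.00029) with 2 counts in all in the Sam68-labelled line at day 3. Sp5 differed by 4.20 ± 0.32 (adjusted p = 1.48e-07). Iigp1, an interferon-induced GTPase gene, differed by 3.98 ± 0.97 (adjusted p = 0.00204); it averaged 0.697 CPM at day 10 and had 2 counts in all at day 3 in the Sam68-labelled line, and 3.96 and 0.959 CPM in wild type, its levels being lower in the Sam68-labelled line at both days.

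The change was lower for Trpm5, a cation channel gene, which averaged 0.233 and 0.038 CPM at days 10 and 3 in the Sam68-labelled line, and 4.16 CPM at day 10 with no count at day 3 in wild type. Its fitted difference of −8.45 therefore depends on the prior count. The same holds for Btk, a kinase gene of blood cells (−4.53, adjusted p = 0.049), which averaged 1.71 and 0.0218 CPM in the Sam68-labelled line, and 3.37 CPM at day 10 with no count at day 3 in wild type. The histone gene Hist1h2ba (−6.37 ± 0.52) had 2 counts in all at day 10 in the Sam68-labelled line. Ccser1 (−4.69 ± 0.34), the GABA receptor gene Gabra3 (−4.50 ± 0.19) and Clvs2 (−4.43 ± 0.51) were the others. Gabra3 averaged 0.225 and 6.93 CPM at days 10 and 3 in the Sam68-labelled line, and 3.43 and 3.94 CPM in wild type.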

How the results depend on the processing

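Of 3710 recomputed log2 fold changes of 270 named genes, 3659 kept their direction and side of the threshold, 29 lost their call, 14 gained one and 8 changed sign. Khdrbs1 changed sign to −0.15 with scaling by protein-coding genes and in a fit of those genes alone, and to −0.19 (adjusted p = 0.00273) without shared sequence, and was 0.10 (adjusted p = 0.0402) without day 3 replicate 3. Rpl22l1 changed sign to −0.033 in the first and second of these fits, and the Y-linked gene Uty to −0.074 in both and −0.12 in the third. The cause was not tested beyond the shift of the median of all genes, −0.17 and, without shared sequence, −0.22 log2 units. Lost calls were those of T, Wt1, Klf1, Myh11, Cyp26c1, Rb1, Cldn3 and Uty, and gained ones those of Khdrbs1, Khdrbs2, Eng, Lhx1, Mesp1 and Chrd. Without shared sequence 10216 of 11404 genes passed (5304 higher, 4912 lower), and 4558 beyond 2-fold (2687 higher, 1871 lower), fewer genes being tested. Among protein-coding genes alone 2430 fell beyond 2-fold, and higher calls made up 51.5% of all calls and 58.5% of those beyond 2-fold. Leaving out 1 library gave 17065 to 17352 genes called (8685 to 8872 higher, 8280 to 8521 lower) and 8184 to 8339 beyond 2-fold (4323 to 4425 higher, 3831 to 3990 lower). For the difference from wild type it gave 10251 to 11749 (4923 to 6455 higher, 4986 to 5671 lower), and from Quaking KO 11257 to 12089 (5558 to 6163 higher, 5637 to 6024 lower). Of 204 recomputed differences of the 12 named genes, 9 lost their call, all of Btk. Of 1372 recomputed list counts, 76 moved by more than 1.5 times. The deviations of same-numbered replicates from the means of their days had correlations of −0.039, −0.028 and −0.119. With 3 libraries per day such values cannot show whether the numbers pair libraries. With the replicate number as a block 16955 genes passed, 8126 beyond 2-fold, and 11745 and 11887 differed from wild type and from Quaking KO.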

Other observations

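Amino acid and endoplasmic reticulum stress genes rose in 10 of 15 cases between the days, with the stress factor Atf3 at 29, 26.2 and 24.8 CPM at day 10, against 7.81, 8.27 and 7.08 CPM at day 3 (log2FC 1.85 ± 0.07) and Atf5 at log2FC 1.71 ± 0.14, while the enzyme gene Shmt2 (log2FC −0.88 ± 0.04) and the stress sensor Sesn2 (log2FC −0.47 ± 0.04) fell. Of 10 p53 targets 5 rose, Perp (log2FC 1.0 ± 0.06) and Eda2r (log2FC 0.66 ± 0.05) furthest, and 4 fell, Aen (log2FC −1.79 ± 0.05) and Zmat3 (log2FC −1.01 ± 0.05) furthest. Of 9 neural crest genes 5 rose, among them the endothelin receptor gene Ednrb (82.3, 104 and 93 CPM at day 10, against 0.471, 0.352 and 0.394 CPM at day 3; log2FC 7.90 ± 0.13) and Tfap2b (log2FC 4.46 ± 0.71), while Sox10, the factor of migrating crest, fell (0.157, 0.142 and 0.122 CPM at day 10, against 1.08, 1.3 and 1.12 CPM at day 3; log2FC −2.97 ± 0.22). Of 3 Cdx genes, Cdx2 was tested.

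Short and long noncoding RNAs of the nucleus split: Rpph1 and Rmrp (3314, 3738 and 3383 CPM at day 10, against 608, 687 and 748 CPM at day 3; log2FC 2.41 ± 0.08) rose, and the host genes Snhg11 (log2FC −3.84 ± 0.08) and Mir17hg (21.4, 18.5 and 29.2 CPM at day 10, against 198, 180.5 and 173 CPM at day 3; log2FC −2.94 ± 0.12) fell, 4 of 11 rising and 7 falling in all. Mir17hg carries a cluster of growth-promoting miRNAs. Nuclear respiratory chain genes rose in 12 of 20 cases, with the muscle subunit Cox6a2 at 11.3, 11.4 and 12.2 CPM at day 10 and no day 3 count (at least 719-fold higher), and their coactivator Ppargc1a at 10.6, 10.3 and 10.8 CPM at day 10, against 0.0842, 0 and 0 CPM at day 3. Messages of the mitochondrial genome fell in 7 of 10 cases, mt-Nd6 (log2FC −1.11 ± 0.21) and mt-Nd1 (log2FC −0.91 ± 0.09) furthest. Cytosolic ribosomal protein genes fell in 12 of 17, Rps2 (1057, 1034 and 965 CPM at day 10, against 1799.6, 1747 and 1934 CPM at day 3; log2FC −0.79 ± 0.06) and Rpl8 (log2FC −0.62 ± 0.04) furthest, and Rpl22l1, a paralogue of a ribosomal protein gene, rose (log2FC 0.14 ± 0.05) but changed sign with scaling by protein-coding genes. Replication-dependent histones fell in 5 of 11 and rose in 1. Of the Y-linked genes 4 of 5 were tested, of which Ddx3y (log2FC 0.49 ± 0.04) rose and Uty (log2FC 0.10 ± 0.04) rose with the reservation given above.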
